A study of Mus musculus with 4 samples.

Results

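The genes examined here are 44 parts of the machinery that copies DNA and supplies its building blocks, measured as RNA in 2 sorted populations of mouse CD4 T cells. They were taken from the expression tables by gene symbol, from a list written with earlier results of these data in view. All 44 symbols were found among 23284, each as a single entry, and every member passed the filter on low values. The cells came from spleens of the inbred mouse strain BALB/c. They had grown under Th1 conditions, with interleukin-12 at 10 ng/ml and interleukin-2 at 15 ng/ml, for 4 days by one label and 5 days by another. A cell sorter then separated a population high in the chemokine receptor CCR7 and low in the costimulatory receptor CD137 (CCR7hiCD137lo) from one with the opposite staining (CCR7loCD137hi). Each population gave 2 libraries, numbered 1 and 2. All 4 libraries share the strain, the tissue and the culture, and the labels name no genetic change and no further treatment. The labels do not say whether the numbered libraries came from separate mice or cultures, so p-values reflect the spread among these samples alone, and that spread may be technical.

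DNA replication starts when origins are licensed in G1. The origin recognition complex, CDC6 and CDT1 load the ring of MCM2 to MCM7 onto DNA, and geminin binds CDT1 to keep an origin from being licensed again. In S phase the DBF4-CDC7 kinase and factors such as MCM10 and GINS turn the ring into an active helicase. Polymerase alpha with its primase starts each strand, polymerases delta and epsilon extend them on the PCNA clamp that the RFC complex loads, and RPA coats single-stranded DNA. FEN1 and DNA ligase 1 join Okazaki fragments, CAF-1 places new histones, and ribonucleotide reductase, thymidylate synthase and their partners make deoxynucleotides. Many of these genes are targets of E2F transcription factors, and T cells switch them on strongly when they divide after activation.

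Promoter sequences are shown here because the members are a group often described as E2F targets. RefSeq promoter windows of GRCm38.p6, from 250 bases before to 50 bases after a transcription start, were at hand for 36 of the 44 genes. Those without an entry were Gins1, Gins2, Gins4, Gmnn, Mcm4, Pole, Prim2 and Rfc2. Where a gene had several windows, the one nearest the deposited gene start was used. A set of 4 spellings of an E2F site were searched on both strands, TTTCCCGC, TTTGGCGC, TTTCGCGC and TTTGCCGC, and matches may overlap each other. At least 1 was present in 12 of 36 members (33.3%) and in 744 of all 32851 windows (2.26%). By spelling, TTTCCCGC was in 7 members, TTTGGCGC in 6, TTTCGCGC in 4 and TTTGCCGC in 0. CCAAT, the core of NF-Y sites, was in 20 of 36 (55.6%, against 37.4% of all windows), and TTTGAA, a cell cycle homology element of genes expressed late in the cycle, in 4 of 36 (11.1%, against 17.9%). A match is only a string of letters and was not tested as a binding site. The 7 members with a match in the 170 bases before the start are printed below, 5′ to 3′ on the gene's strand, with the matching letters in capitals.
Cdc6 (chr11:98907981-98908150, plus strand): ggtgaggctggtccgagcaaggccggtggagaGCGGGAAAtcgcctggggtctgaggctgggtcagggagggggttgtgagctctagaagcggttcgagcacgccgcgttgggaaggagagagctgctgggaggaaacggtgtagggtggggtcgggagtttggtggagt
Mcm5 (chr8:75109339-75109508, plus strand): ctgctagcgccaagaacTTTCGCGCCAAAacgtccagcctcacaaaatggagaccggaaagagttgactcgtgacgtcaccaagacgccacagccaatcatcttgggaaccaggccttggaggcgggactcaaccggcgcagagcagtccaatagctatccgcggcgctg
Mcm6 (chr1:128359706-128359875, minus strand): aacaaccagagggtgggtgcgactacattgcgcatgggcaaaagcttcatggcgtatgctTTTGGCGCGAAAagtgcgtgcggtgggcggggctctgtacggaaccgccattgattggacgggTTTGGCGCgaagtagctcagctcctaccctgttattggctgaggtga
Mcm7 (chr5:138171884-138172053, minus strand): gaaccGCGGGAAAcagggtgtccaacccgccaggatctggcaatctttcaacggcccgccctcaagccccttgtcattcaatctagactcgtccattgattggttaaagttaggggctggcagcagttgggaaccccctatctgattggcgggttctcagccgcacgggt
Gins3 (chr8:95633389-95633558, plus strand): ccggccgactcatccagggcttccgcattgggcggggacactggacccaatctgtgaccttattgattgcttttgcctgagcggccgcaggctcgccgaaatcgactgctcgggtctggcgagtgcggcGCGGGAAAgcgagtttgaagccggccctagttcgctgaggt
Pola1 (chrX:93632156-93632325, minus strand): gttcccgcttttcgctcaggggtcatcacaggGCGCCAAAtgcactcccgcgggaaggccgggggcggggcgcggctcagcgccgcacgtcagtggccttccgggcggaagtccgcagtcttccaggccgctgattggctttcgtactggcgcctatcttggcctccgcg
Rfc3 (chr5:151651209-151651378, minus strand): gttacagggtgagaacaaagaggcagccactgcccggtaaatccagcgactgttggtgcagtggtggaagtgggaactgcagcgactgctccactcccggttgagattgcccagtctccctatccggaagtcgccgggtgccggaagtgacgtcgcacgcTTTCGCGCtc
In Mcm5 a pair of matches overlap, and Mcm6 holds an overlapping pair and a further match nearer the start. The other 5 members with a match, Cdt1, Mcm3, Pold1, Pold3 and Pole2, hold it after the start site.

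Levels are FPKM, fragments scaled by transcript length and by library total, and were made and deposited by the authors. Differences are log2 fold changes of FPKM + 1, above 0 where CCR7loCD137hi had the higher level, with the standard error (SE) of limma, a linear model that borrows spread across genes. The sort labels held in every library: Ccr7 stood at 93.4 and 118.4 FPKM in CCR7hiCD137lo against 39.6 and 38.2 FPKM in CCR7loCD137hi, and Tnfrsf9, the CD137 gene, at 0.961 and 6.25 against 158.2 and 183.8 FPKM. Estimated depth ran from about 6280000 to about 20500000 fragments, lowest in CCR7loCD137hi replicate 2. The 8 CD4 T cell markers summed to between 1072 and 1322 FPKM and all were present. Of other cells' markers, the 5 B cell genes summed to 0.0917 and 0.221 FPKM in CCR7hiCD137lo and to 4.44 and 0.529 FPKM in CCR7loCD137hi, and the 5 CD8 T and NK cell genes to 12.1 and 21.8 against 40.9 and 32.9 FPKM. The 6 myeloid genes, with Csf1r at 0 throughout, summed to 0.171 and 0.0594 against 5.90 and 4.05 FPKM. The 6 erythroid and platelet genes, with Hbb-b1 and Pf4 at 0 throughout, summed to 0.306 and 0.536 against 1.27 and 2.29 FPKM. All 4 of these sums were thus higher in both CCR7loCD137hi libraries. The part of these markers in the results below was not tested. Without CCR7loCD137hi replicate 1, which had the highest B cell and CD8 and NK sums, 39 of 44 members were fitted below 0, with a median of −0.21. That fit cannot show the part of the markers. CCR7loCD137hi replicate 2, which stayed in it, also exceeded both CCR7hiCD137lo libraries in all 4 sums.

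As a group, replication genes were strongly expressed in both populations and stood slightly lower in CCR7loCD137hi. Their summed level was 2982 and 2911 FPKM in CCR7hiCD137lo replicates 1 and 2 and 2740.3 and 2505 FPKM in CCR7loCD137hi replicates 1 and 2. Both CCR7loCD137hi sums lay below both others, with a mean of 2623 ± 166.1 FPKM (SD, n = 2) against 2947 ± 50.3 FPKM (SD, n = 2). As a share of all FPKM outside short RNA genes, the members took 0.781% and 0.738% in CCR7hiCD137lo and 0.676% and 0.622% in CCR7loCD137hi. In RNA of sorted cells, fewer cycling cells and less of each RNA per cell cannot be told apart.

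No single member passed the test. Limma called 0 of 44 members over all 10496 genes tested, where it called 6 in all (0.0572%), and the lowest adjusted p of a member was 0.534. At an unadjusted p under 0.05 there were 2 members, Rrm1 and Pola1, both lower, against 3.49% of all genes in that direction. With 2 libraries a group, the smallest two-sided p of an exact permutation test is 0.333, so it could not pass for any gene. The fitted values nevertheless lay mostly on one side. Of the 44 members 38 were fitted below 0, where 52.1% of all genes tested were, and the median was −0.19 against −0.01 over all genes. Among the 5908 genes with a mean of at least 10 FPKM, which takes in every member, the median was −0.03. The median moved to −0.12, with 35 members below 0, without CCR7loCD137hi replicate 2.

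Counted by libraries, 24 members had both CCR7loCD137hi values below both CCR7hiCD137lo values, 1 had both above, and 19 overlapped. Over all genes tested the shares were 21.5% below and 16.6% above, and among genes of at least 10 FPKM 23.2% were below. These counts take a gap of any size. For Mcm10, CCR7loCD137hi replicate 1 had 21.3 FPKM and CCR7hiCD137lo replicate 2 had 21.5 FPKM. For Cdt1 the same libraries had 57.0 and 56.9 FPKM. Within each replicate number, 36 members were lower in CCR7loCD137hi among the libraries numbered 1 and 38 among those numbered 2. In 32 they were lower within both numbers, against 35.9% of all genes, and in 2, Cdt1 and Rfc3, higher within both. The median difference was −0.12 in number 1 and −0.22 in number 2, and for all genes 0.01 and −0.04. The difference was further below 0 in number 2 than in number 1 for 30 of 44 members. CCR7loCD137hi replicate 2, the shallowest library, held the lowest of the 4 values for 27 members, against 29.9% of all genes.

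**Figure D1:**
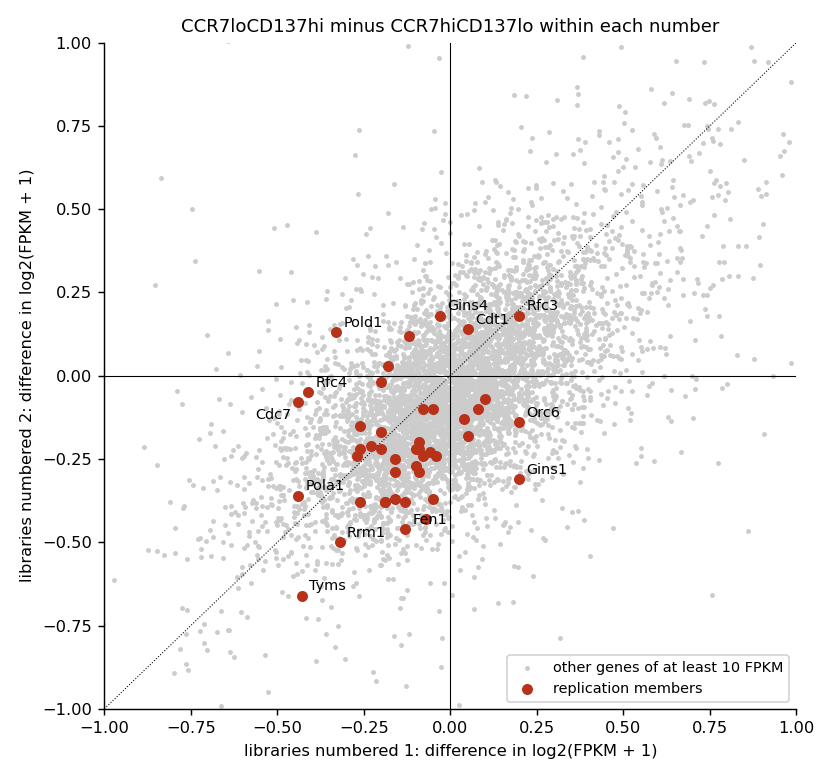
Each red point is a replication gene and each grey point another gene with a mean of at least 10 FPKM. The axes give the difference in log2(FPKM + 1), CCR7loCD137hi minus CCR7hiCD137lo, between the libraries numbered 1 (horizontal) and numbered 2 (vertical), the dotted line marks equal differences, and 235 genes beyond 1 on either axis are not drawn. Of the members, 32 lie below 0 on both axes and 2 above 0 on both.

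Between the libraries of one population, the median absolute difference of a member was 0.09 in CCR7hiCD137lo and 0.16 in CCR7loCD137hi, beside a median group difference of −0.19. The values within a population are absolute differences between single libraries, and the group value is a signed difference between means. Counting error was estimated for the group difference only. With the estimated depths, members were covered by about 122 to 12921 fragments in a library, which gives a counting SE of the group difference of 0.019 to 0.093 (median 0.045). The difference lay more than 2 such SE below 0 for 32 members, an error that leaves out the spread between samples. Counting SE was not computed for other genes, so no share over all genes stands beside that count. Levels ranged from a mean of 11.3 FPKM for Gins3 to 386.5 FPKM for Pcna, with Rrm2 (170.8 FPKM), Mcm3 (151.1 FPKM) and Mcm6 (122.7 FPKM) next below Pcna.

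**Figure D2:**
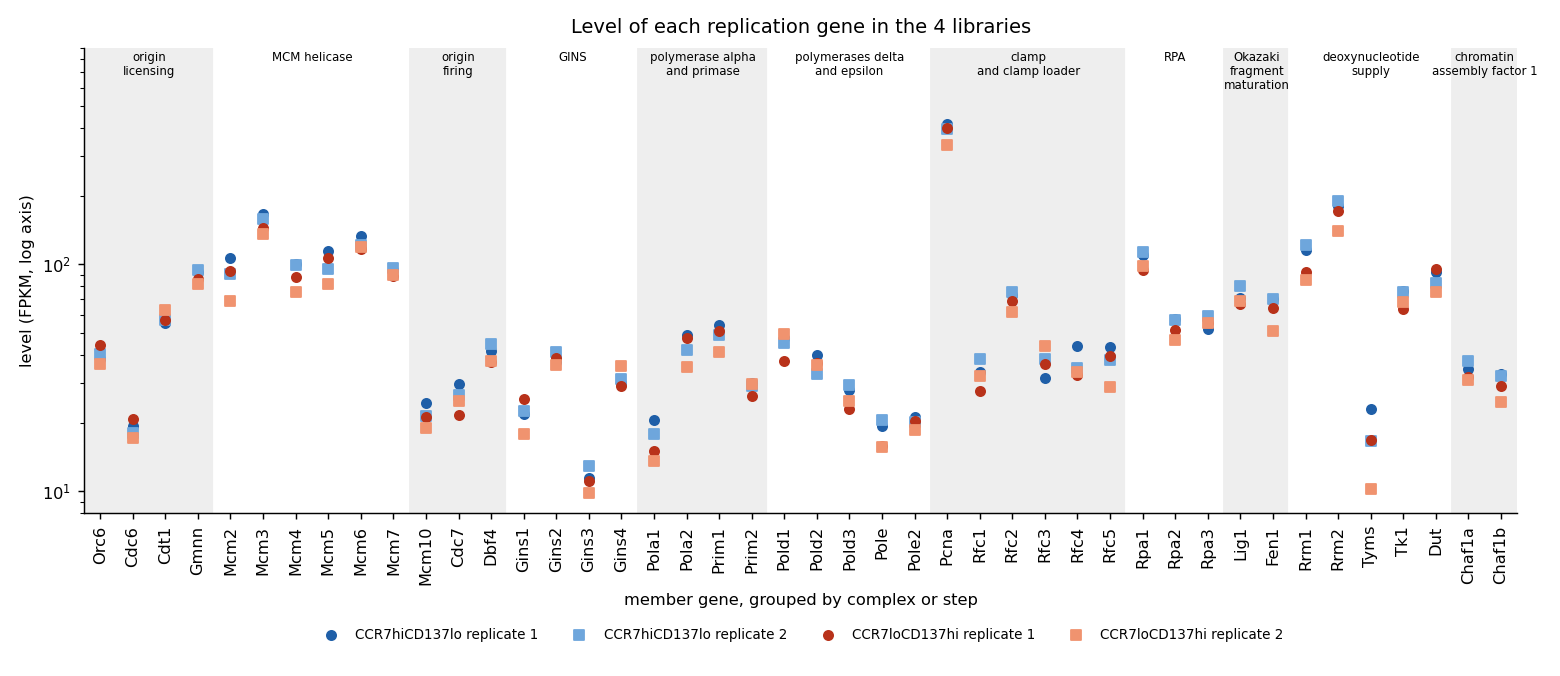
Level of the 44 genes in FPKM on a log axis, grouped by complex or step along the horizontal axis, with 1 symbol for each of the 4 libraries and no averaging. Levels span from 9.79 FPKM (Gins3) to 415.2 FPKM (Pcna).

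By complex, the median fitted difference was below 0 in 10 of 11 groups, the exception being origin licensing. Summed over its genes, the complex lay lower in both CCR7loCD137hi libraries than in both CCR7hiCD137lo libraries in 8 of 11 groups. All groups were measured in the same 4 libraries, so these 8 are not separate results. No such count was made for sums of other genes. The sums overlapped for origin licensing, GINS, and polymerase alpha with primase. Relative to CCR7hiCD137lo, the mean sum in CCR7loCD137hi stood at −15.8% for deoxynucleotide supply, −14.7% for CAF-1, −14.3% for origin firing, −14.1% for Okazaki fragment maturation and −12.2% for the MCM helicase. It stood at −2.14% for GINS and −1.77% for origin licensing. No test of a difference between complexes was made.

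**Figure D3:**
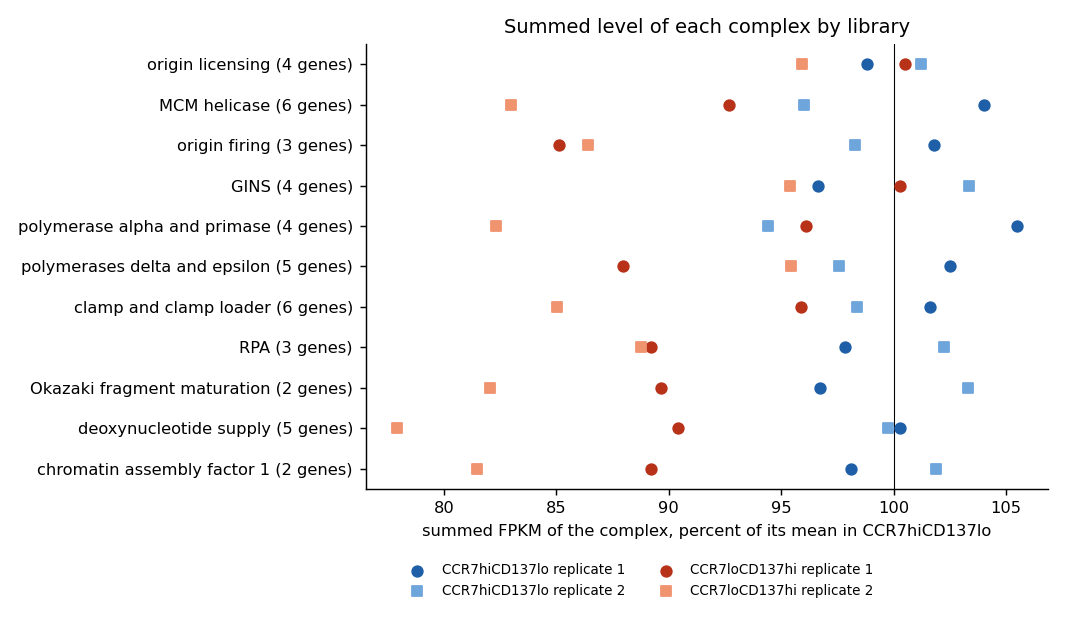
Summed FPKM of each complex in each library, as a percent of its mean in the 2 CCR7hiCD137lo libraries (vertical line at 100), with the number of genes in parentheses. The CCR7loCD137hi symbols lie left of both CCR7hiCD137lo symbols in 8 of 11 rows.

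In deoxynucleotide supply all 5 genes were fitted below 0, and 3 of 5 were separated with CCR7loCD137hi lower. Over all genes tested the shares were 52.1% and 21.5%. Rrm1, the large subunit of ribonucleotide reductase, which makes deoxynucleotides from ribonucleotides (mm10 chromosome 7, 102441695 to 102469771, plus strand), stood at 116.1 and 121.3 FPKM in CCR7hiCD137lo against 92.8 and 85.5 FPKM in CCR7loCD137hi. Both CCR7loCD137hi libraries were the lower, and the fitted difference was −0.41 (SE 0.117, limma adjusted p = 0.534). Rrm2, the small subunit whose level limits the enzyme in S phase, stood at 180.8 and 189.6 FPKM and at 172.4 and 140.5 FPKM. Its difference of −0.25 (SE 0.146) came mainly from the libraries numbered 2, with −0.43 against −0.07 in number 1. The level of Rrm1 over that of Rrm2 was 0.642 and 0.640 in CCR7hiCD137lo and 0.539 and 0.608 in CCR7loCD137hi.

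Tyms, thymidylate synthase (chromosome 5, 30058200 to 30073625, minus strand), had a fitted value of −0.54 and the highest SE of the 44 (0.295, limma adjusted p = 0.718). That value was −0.205 without CCR7loCD137hi replicate 2, −0.32 without CCR7hiCD137lo replicate 1 and −0.88 without CCR7loCD137hi replicate 1. It stood at 23.0 and 16.6 FPKM in CCR7hiCD137lo against 16.8 and 10.2 FPKM in CCR7loCD137hi. The populations overlapped, since replicate 2 was lower than replicate 1 in both, while within each number CCR7loCD137hi was lower, by −0.43 and −0.66. Tk1, the thymidine kinase that salvages thymidine, stood at 76.2 and 75.8 FPKM against 63.5 and 68.1 FPKM, with no overlap. Dut, which removes dUTP, stood at 92.6 and 82.6 FPKM against 95.1 and 75.4 FPKM and overlapped.

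Of the 4 origin licensing genes, 1 was separated with CCR7loCD137hi lower, 1 with it higher, and 2 overlapped. Over all genes tested 21.5% were separated lower and 16.6% higher. Orc6, a subunit of the origin recognition complex, stood at 38.1 and 40.2 FPKM in CCR7hiCD137lo against 44 and 36.4 FPKM in CCR7loCD137hi. Cdc6, an origin-bound loader ATPase, stood at 19.3 and 18.1 against 20.8 and 17.2 FPKM. Both overlapped, and their fitted values of 0.03 and 0.02 turned to −0.03 and −0.04 when levels were rescaled without short RNA genes. That rescaling also moved the median of all genes, from −0.01 to −0.06. Cdt1, the partner of Cdc6 in loading MCM rings, was the single member with both CCR7loCD137hi libraries above both others. It stood at 55.1 and 56.9 FPKM against 57.0 and 63.0 FPKM, a difference of 0.10 (SE 0.122, limma adjusted p = 0.872). Gmnn, which encodes the CDT1 inhibitor geminin, was at 92.0 and 94.3 FPKM against 86.3 and 81.9 FPKM, with no overlap and a difference of −0.15 (SE 0.112). The level of Gmnn over that of Cdt1 was 1.67 and 1.66 in CCR7hiCD137lo and 1.51 and 1.3 in CCR7loCD137hi.

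All 6 MCM helicase genes were lower within both replicate numbers, against 35.9% of all genes, and 4 of 6 without overlap, against 21.5%. Mcm3, the highest of them in every library, stood at 166.7 and 157.6 FPKM in CCR7hiCD137lo against 144.7 and 135.3 FPKM in CCR7loCD137hi. Mcm4 was at 100.3 and 98.8 FPKM against 87.8 and 75.4 FPKM. Mcm6 was at 133.4 and 121.6 FPKM against 116.4 and 119.6 FPKM. These are separated by population, as is Mcm7, at 94.3 and 96.1 FPKM against 89.2 and 89.3 FPKM. Mcm2, at 106.4 and 90.5 FPKM against 93.0 and 69.2 FPKM, and Mcm5, at 114.0 and 95.4 FPKM against 106.1 and 81.7 FPKM, overlapped because replicate 2 was lower than replicate 1 in both populations. Fitted differences ran from −0.29 for Mcm2 and Mcm4 to −0.09 for Mcm7, none with an adjusted p under 0.680. The ring has equal numbers of each subunit, and the highest of the 6 levels was 1.77 and 1.74 times the lowest in CCR7hiCD137lo and 1.65 and 1.95 times in CCR7loCD137hi.

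The 3 origin firing genes were all separated by population with CCR7loCD137hi lower, where 21.5% of all genes tested were. Mcm10, which helps activate the loaded helicase, was at 24.6 and 21.5 FPKM in CCR7hiCD137lo and 21.3 and 19 FPKM in CCR7loCD137hi. Cdc7, the kinase that phosphorylates MCM proteins, was at 29.7 and 26.5 FPKM against 21.6 and 25.0 FPKM. Dbf4, its activating subunit, was at 41.6 and 44.5 FPKM against 37.2 and 37.4 FPKM. Their fitted differences were −0.18, −0.26 and −0.20. For Cdc7 the difference was −0.44 in number 1 and −0.08 in number 2.

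GINS genes varied among themselves. Gins1 was at 22.0 and 22.5 FPKM in CCR7hiCD137lo against 25.4 and 17.9 FPKM in CCR7loCD137hi, and so differed by 0.20 in number 1 and by −0.31 in number 2. Gins2 was at 37.1 and 40.9 FPKM against 38.5 and 36.1 FPKM. Gins4 was at 29.9 and 31.3 FPKM against 29.2 and 35.5 FPKM. These 3 overlapped, and only Gins3, the lowest member, was separated, at 11.5 and 12.9 FPKM against 11.1 and 9.79 FPKM (−0.21, SE 0.146). That is 1 of 4 genes, where 21.5% of all genes tested were separated in that direction.

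Of the 4 genes of polymerase alpha and primase, 1, Pola1, was separated by population with CCR7loCD137hi lower. Of the 5 genes of polymerases delta and epsilon, 2 were, Pole and Pold3. Over all genes tested the share was 21.5%. Pola1, the catalytic subunit of polymerase alpha (chromosome X, 93304766 to 93632155, minus strand), stood at 20.6 and 17.8 FPKM in CCR7hiCD137lo against 15.0 and 13.6 FPKM in CCR7loCD137hi. The populations had a difference of −0.40 (SE 0.145, limma adjusted p = 0.613), and its upstream sequence with 1 E2F spelling is printed above. Pole, the catalytic subunit of polymerase epsilon (chromosome 5, 110286319 to 110337453, plus strand), stood at 19.3 and 20.6 FPKM against 15.9 and 15.6 FPKM, also separated (−0.32, SE 0.124, limma adjusted p = 0.619). Pole2, its second subunit, overlapped, at 21.2 and 20.1 FPKM against 20.4 and 18.7 FPKM. The other members of the alpha complex overlapped as well. Pola2, the regulatory subunit, was at 48.9 and 41.9 FPKM against 47.5 and 35.4 FPKM. Prim1, the catalytic primase subunit, was at 54.0 and 48.6 FPKM against 50.9 and 41.1 FPKM. Prim2, the large primase subunit, was at 29.9 and 29.0 FPKM against 26.3 and 29.6 FPKM. Pola1 had the lowest level of these 4 genes and Prim1 the highest in every library.

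Polymerase delta was mixed. Pold1, its catalytic subunit, was at 47.4 and 45.0 FPKM in CCR7hiCD137lo against 37.5 and 49.5 FPKM in CCR7loCD137hi, so that the sign differed between number 1 (−0.33) and number 2 (0.13). Pold2, an accessory subunit, was at 39.7 and 32.9 FPKM against 36.6 and 35.9 FPKM, and its fitted value of 0.00 became −0.05 after rescaling without short RNA genes. Pold3, which binds PCNA, was separated, at 28.0 and 29.4 FPKM against 23.1 and 25.1 FPKM (−0.24, SE 0.125). Of all genes tested, 21.5% were separated in that direction.

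The clamp and its loader were lower in CCR7loCD137hi for 5 of 6 genes within both numbers, against 35.9% of all genes. Pcna, the sliding clamp and a common mark of dividing cells (chromosome 2, 132249286 to 132253180, minus strand), was at 415.2 and 395.6 FPKM in CCR7hiCD137lo against 399.1 and 336.2 FPKM in CCR7loCD137hi. The populations overlapped, with a difference of −0.15 (SE 0.134, limma adjusted p = 0.822). Rfc1, the large subunit of the loader, was at 33.6 and 38.1 FPKM against 27.8 and 32.1 FPKM. It was separated, as were Rfc2, at 73.5 and 75.6 FPKM against 68.9 and 61.7 FPKM, and Rfc4, at 43.6 and 34.8 FPKM against 32.6 and 33.6 FPKM. Separation with CCR7loCD137hi lower thus held for 3 of 6 genes, against 21.5% of all genes tested. Rfc5 overlapped, at 43.1 and 37.8 FPKM against 39.5 and 28.7 FPKM. Rfc3 (chromosome 5, 151642824 to 151651208, minus strand) went the other way within both numbers, at 31.5 and 38.3 FPKM against 36.4 and 43.6 FPKM. Its difference of 0.19 (SE 0.169, limma adjusted p = 0.816) was the highest of the 44, and the populations overlapped since replicate 2 was higher than replicate 1 in both.

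RPA, the trimer that coats single-stranded DNA, had its larger subunits separated. Rpa1 was at 110.4 and 113.8 FPKM in CCR7hiCD137lo against 94.2 and 98.1 FPKM in CCR7loCD137hi (−0.22, SE 0.111), and Rpa2 at 57.2 and 56.6 FPKM against 51.2 and 46.2 FPKM (−0.22, SE 0.122). Rpa3, the smallest subunit, overlapped, at 52.1 and 59.3 FPKM against 55.1 and 55.2 FPKM. Both genes of Okazaki fragment maturation were separated with CCR7loCD137hi lower, where 21.5% of all genes tested were. Lig1, DNA ligase 1, was at 71.3 and 80.4 FPKM against 67.0 and 68.9 FPKM, and Fen1, the flap endonuclease, at 70.0 and 70.5 FPKM against 63.9 and 51.0 FPKM. Both CAF-1 genes were separated in that direction too, against the same share of all genes. Chaf1a, the large subunit of this histone chaperone, was at 34.5 and 37.5 FPKM against 32.0 and 30.9 FPKM, and Chaf1b, the middle subunit, at 32.8 and 32.3 FPKM against 29.2 and 24.8 FPKM.

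Some of these genes share exon sequence with genes on the opposite strand, and whether the authors' counting used strand is not given in the sources used here. In the GENCODE annotation 11 members overlap an exon of such a gene. The overlap covers 78.8% of the exon bases of Fen1 (with the antisense gene Gm10143), 67.3% of Gins2 (Gse1), 52.5% of Chaf1a (Ubxn6), 15.1% of Rfc2 (Lat2), 12.7% of Rfc4 (Eif4a2) and 10.7% of Rfc5 (Wsb2), so their values are less certain. Among the 31 members with no exon overlap on either strand, 26 were fitted below 0, with a median of −0.16. Members with a match to an E2F spelling did not have the lower median. The 12 with a match had a median of −0.10, with 9 below 0. The 24 members searched without one had a median of −0.21, with 22 below 0. Only exact spellings were searched, so those 24 may hold other forms of an E2F site. The split is a description and cannot show whether E2F control goes with lower values, which was not tested.

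Other genes of the pathway, from lists that hold none of the 44, lay lower in part, and no test compared them with the 44. Of 35 further replication and chromatin assembly factors, limma called 0, 27 were fitted below 0 and 17 had separated populations with CCR7loCD137hi lower, with a median of −0.21. Over all genes 52.1% were fitted below 0 and 21.5% were separated in that direction. The median was −0.09 without CCR7loCD137hi replicate 2, −0.11 without CCR7hiCD137lo replicate 1 and −0.32 without CCR7loCD137hi replicate 1. Top2a, the topoisomerase that untangles replicated DNA, stood at 313.0 and 327.2 FPKM in CCR7hiCD137lo against 190.5 and 194.9 FPKM in CCR7loCD137hi (−0.73, SE 0.107, limma adjusted p = 0.296), further apart than any of the 44 members. Asf1b, a histone chaperone, was at 111.8 and 102.0 FPKM against 83.5 and 83.9 FPKM. At an unadjusted p under 0.05 in limma there were 3 of the 35 genes, all lower, against 3.49% of all genes in that direction. In 3 of the 35 the populations were separated with CCR7loCD137hi higher, against 16.6% of all genes.

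Of 28 further genes of nucleotide synthesis, limma called 0, 0 had an unadjusted p under 0.05, and 19 were fitted below 0, with a median of −0.13. Leaving out CCR7loCD137hi replicate 2 gave a median of 0.04 and CCR7hiCD137lo replicate 1 one of −0.03. Without CCR7hiCD137lo replicate 2 it was −0.23, and without CCR7loCD137hi replicate 1 −0.295. In 3 of the 28 genes the populations were separated with CCR7loCD137hi lower, and in 2 with it higher. Over all genes tested 21.5% were separated lower and 16.6% higher. Of all genes 52.1% were fitted below 0, and 3.49% were lower at an unadjusted p under 0.05 in limma. Nme2 and Nme1, nucleoside diphosphate kinases, differed mainly by replicate number, with Nme2 at 495.4 and 331.7 FPKM against 521.3 and 341.2 FPKM and Nme1 at 214.7 and 153.7 FPKM against 229.6 and 130.3 FPKM. The 28 genes include enzymes of the purine and pyrimidine pathways, which also serve RNA synthesis.

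Among 17 genes of G1/S control, limma called 0, 3 had an unadjusted p under 0.05, all lower, and 11 were fitted below 0 (median −0.11), against 3.49% and 52.1% of all genes. Without CCR7loCD137hi replicate 2 the median was −0.04. Ccna2, the S phase cyclin A, was at 132.2 and 129.8 FPKM in CCR7hiCD137lo against 97.3 and 98.6 FPKM in CCR7loCD137hi (−0.42, SE 0.108, limma adjusted p = 0.491). Myc, a growth-promoting transcription factor, was at 81.5 and 121.6 FPKM against 116.5 and 157.7 FPKM, a difference of 0.44 with overlap (SE 0.261, limma adjusted p = 0.741). All 12 mitosis genes were fitted below 0 (median −0.22), of which limma called 0 and 1 had an unadjusted p under 0.05. Mki67, which encodes the proliferation antigen Ki-67, was at 130.1 and 151.8 FPKM against 106.8 and 128.3 FPKM, and Birc5, survivin, at 226.9 and 212.9 FPKM against 208.1 and 172.5 FPKM. Both Mki67 and Birc5 had separated populations. Of the 12 mitosis genes, 8 were separated with CCR7loCD137hi lower and 4 overlapped, where 21.5% of all genes tested were separated in that direction.

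**Figure D4:**
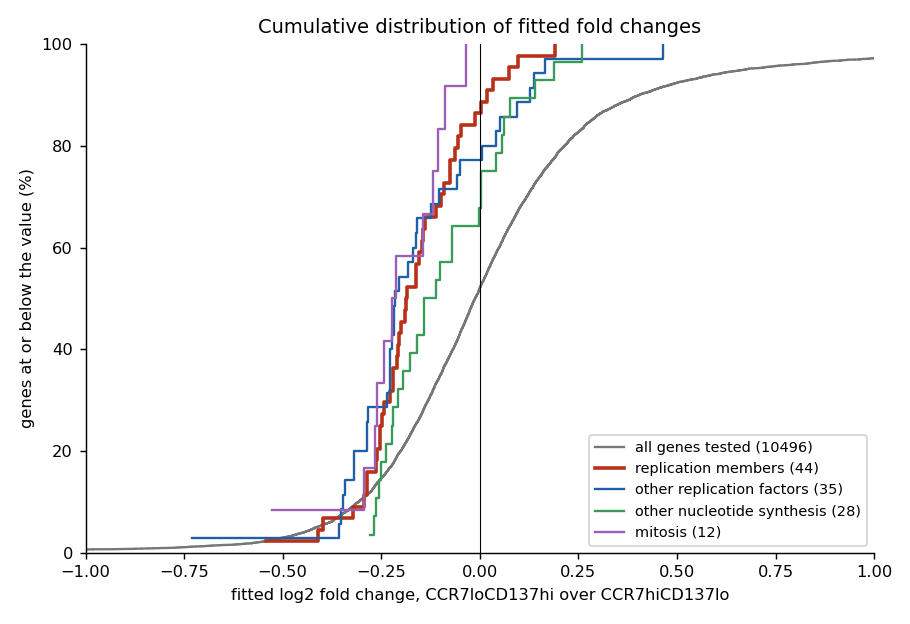
Cumulative distribution of the fitted log2 fold change (horizontal axis, drawn from −1 to 1) for all 10496 genes tested, the 44 replication members and 3 further lists, with the number of genes in parentheses and the percent of genes at or below each value on the vertical axis. The line for the members crosses 0 with 38 of 44 genes already counted, where 52.1% of all genes are.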

How the data were processed

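Polyadenylated RNA of 4 sorted CD4 T cell libraries, 2 per population, was analysed from 1 deposited table per library. The FPKM values were made by the authors, and per the file headers the tables have the columns of a Cufflinks gene table. The value column bears the library's name, so FPKM is read from that layout and the tools named. Tools named, without their roles, per the submitters' processing notes are Cufflinks 2.0.2, TopHat 1.3.2 and Bowtie 0.12.8, with the mm10 build. Annotation, filters and scaling between libraries: not given in the sources used here.

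Each table held 23746 entries, and for 240 symbols with several entries the one with the highest mean was used. Genes with a mean of at least 1 FPKM entered limma 3.58.1 (R 4.3.3) as log2(FPKM + 1) (variance trend, two-sided, Benjamini-Hochberg adjustment over all genes tested, threshold 0.05), with 2 residual and 2.54 prior degrees of freedom. The fit was tested on simulated data. A pseudocount of 1 shrinks the differences of low genes.

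Groups and numbers came from the titles. Members and lists were chosen with earlier results of these data known, so no p over a list is given. All members may be named, and of each further list the called genes (up to 4) or, with fewer than 2, the 2 most expressed.

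Depth is not stated. Relative depth came from the whole-read steps of values under 0.3 FPKM (ratios matched within 0.002 in natural log for 50.1% to 51.5% of genes), and absolute depth from genes of 1 exon, taking fragments as 200 nt long, so it is approximate. Fragment numbers used RefSeq transcript lengths, and counting errors cover counting only. Short RNA genes (771 symbols beginning as microRNA, snoRNA, snRNA or scaRNA genes do) held 13.9% of summed FPKM in CCR7loCD137hi replicate 1 and 16.1% to 16.4% in the other libraries. Deposited starts were raised by 1. Alternatives were other pseudocounts, filters and scalings, no trend, a replicate block, summed entries and leaving out each library. Tables and plots were made in Python 3.11.15 (numpy 2.4.6, pandas 2.3.3, matplotlib 3.10.9).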

Additional observations from a re-analysis of the deposited data

How the results depend on the processing

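Under 14 alternatives no replication gene was called, and the lowest adjusted p of a member was 0.12 (limma with the replicate block). Over all genes 6 were called, against 1 with no filter, 2 with quantile normalization, 2 with no variance trend, and 20 to 49 when 1 library was left out. The replicate numbers are not stated to pair the samples. Deviations of same-numbered libraries correlated at 0.214 across all genes and 0.464 across the members. With the replicate block in the model 42 genes were called, none a member, and 10 members had an unadjusted p under 0.05. The share of all genes at that limit was not computed for the blocked fit, so these 10 have no background beside them. The members' median of −0.186 became −0.242 on rescaling without short RNA genes, where 41 of 44 were below 0. On that rescaling the median of all genes also moved, from −0.012 to −0.064, so the shift was not particular to the members. Orc6 (−0.025), Cdc6 (−0.037) and Pold2 (−0.053) changed sign there. The members' median ran from −0.208 to −0.117 with 1 library left out. With 1 library left out, which leaves 1 in its population whose spread is taken from the others, these genes crossed 0: Orc6 (−0.101 to 0.165), Cdc6 (−0.110 to 0.148), Pold2 (−0.128 to 0.136), Mcm5 (−0.348 to 0.024), Gins1 (−0.298 to 0.187), Gins2 (−0.130 to 0.006), Gins4 (−0.062 to 0.210), Pola2 (−0.346 to 0.070), Prim2 (−0.158 to 0.007), Pold1 (−0.295 to 0.097), Rpa3 (−0.103 to 0.079) and Dut (−0.212 to 0.118). Leaving out CCR7loCD137hi replicate 2 turned the sign of Mcm5, Gins1, Gins4, Pola2 and Dut, and leaving out CCR7loCD137hi replicate 1 that of Orc6, Cdc6, Prim2, Pold1 and Pold2. Leaving out CCR7hiCD137lo replicate 1 turned Orc6 and Dut, and CCR7hiCD137lo replicate 2 turned Cdc6, Gins2, Pold2 and Rpa3. The median of origin licensing ran from −0.106 to 0.086 in those fits, and each of the other 10 complexes kept a median below 0. Of 616 member values under the alternatives 597 kept their sign and side of the threshold. Changing the filter, the variance trend, the block or the summing of entries left every member's fitted value unchanged. In those fits a sign could not turn, so the count overstates how firm the values are. The cause of these changes was not tested.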
